A study of Caenorhabditis elegans with 41 samples.

Results

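A set of 10 lipid-synthesis genes of Caenorhabditis elegans was followed across the 23 mRNA-seq libraries used here from a study of chromosomal duplications: the fatty acid desaturase genes fat-1, fat-2, fat-3, fat-4, fat-5, fat-6 and fat-7 and the fatty acid elongase genes elo-1, elo-2 and elo-5. They were taken by gene identifier and not by a rule on their values, though earlier results of these data were known. They are 10 of the 20390 genes listed. All 10 had a usable estimate in each of the 23 libraries.

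C. elegans makes its own polyunsaturated fatty acids, which most animals must eat. FAT-5, FAT-6 and FAT-7 are Δ9 desaturases that place the first double bond, FAT-5 mainly in palmitic acid and the other two mainly in stearic acid. FAT-2 is the Δ12 desaturase that turns oleic into linoleic acid, FAT-1 the omega-3 desaturase, FAT-3 the Δ6 desaturase and FAT-4 the Δ5 desaturase at the end of the route. ELO-2 elongates palmitic acid, ELO-1 elongates the products of FAT-3, and ELO-5 serves the branched-chain fatty acids made from leucine. Much of this synthesis takes place in the intestine.

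The study set strains with extra or missing chromosome segments beside one another, and each mRNA-seq library came from a pool of whole animals. Among embryos, TY1916 (3 libraries) carries yDp11, an X segment attached to chromosome IV, with lon-2(e678) and unc-9(e101) on X, and the study describes further gain of coverage on the right arm of IV and the left end of V. OP37 (3 libraries labelled embryos) carries wgIs37, a multicopy fosmid with pha-4 tagged by GFP and an unc-119 rescue. BC4289 carries sDp10, a piece of chromosome IV attached to X, and was sampled in 2 libraries of L2-L3 larvae and 3 of young adults. SP117 carries mnDp10, an X segment attached to chromosome I, with unc-3(e151), and was sampled at 3 stages, with 2 libraries of embryos, 4 of L2-L3 larvae and 3 of young adults. VC100 embryos (3) carry unc-112(r367) and gkDf2, an X deletion. Each strain is 1 line, no library of unmutated N2 worms was used here, and the 18 DNA-seq samples were not analysed here, so the copy number of any gene below was not tested.

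Expression is given as FPKM, fragments counted per length of gene model and per sequencing depth, so levels of different genes can be compared. The files used here give no read counts. The steps between low FPKM values put the libraries between 11.5% and 100% of the deepest one, and SP117 L2-L3 replicate 2 was the shallowest. Spearman correlations between replicates over all genes were between 0.911 and 0.991. The summed FPKM of 8 early embryo markers was only 19.6 to 33.7 in the OP37 libraries, near the 18.0 to 33.6 of L2-L3 larvae, against 184 to 206 in TY1916 embryos, 275 to 342 in SP117 embryos and 313 to 326 in VC100 embryos. Over all genes the OP37 libraries correlated with L2-L3 libraries at 0.906 to 0.937 and with the other embryo libraries at 0.502 to 0.704. OP37 was therefore set against both stages. The summed FPKM of 6 yolk protein genes was 19105 to 26534 in young adults and at most 45.1 in every other library.

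**Figure D1:**
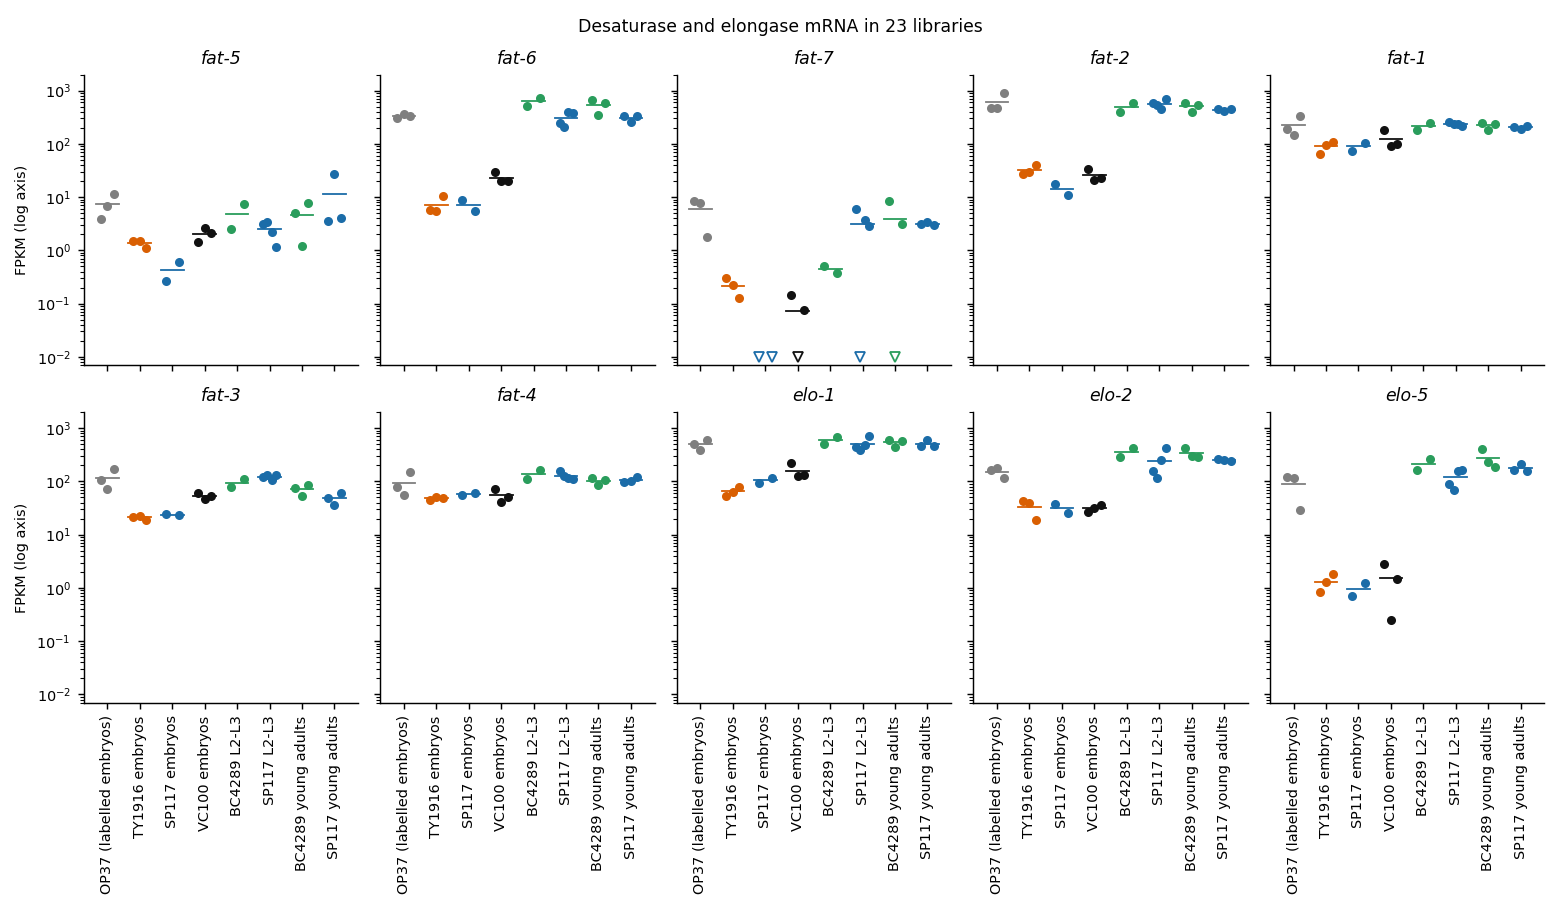
FPKM of the 10 genes on a log axis, 1 point per library and a line at the group mean, coloured by strain. Open triangles mark fat-7 libraries under 0.01 FPKM, drawn at that value. For fat-2, fat-6, elo-1, elo-2 and elo-5, the embryo points of TY1916, SP117 and VC100 all lie below every larval and adult point.

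On chromosome IV lie 8 of the 10 genes (WS220 coordinates throughout). fat-1 (Y67H2A.8, IV 13315617 to 13318759) and fat-2 (W02A2.1, IV 13323825 to 13326370) are neighbours with 5065 bp between them. fat-4 (T13F2.1, IV 9799406 to 9802211) and fat-3 (W08D2.4, IV 9803005 to 9806101) are 793 bp apart, and elo-1 (F56H11.4, IV 9526341 to 9528335) lies 0.271 Mb from fat-4. fat-6 (VZK822L.1, IV 11913666 to 11917317), elo-5 (F41H10.7, IV 5374589 to 5377267) and elo-2 (F11E6.5, IV 17466021 to 17467378) stand alone. The other Δ9 genes, fat-7 (F10D2.9, V 7151336 to 7153127) and fat-5 (W06D12.3, V 17723753 to 17726799), are on chromosome V.

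The genes differed widely in level. Averaged over the 23 libraries, elo-1 had the highest mean at 380 FPKM, followed by fat-2 at 354, fat-6 at 265, elo-2 and fat-1 at 181 each, elo-5 at 110, fat-4 at 92.5 and fat-3 at 71.8. fat-5 (4.39 FPKM) and fat-7 (2.31 FPKM) were far lower. The range within a gene also differed. The highest library exceeded the lowest 4.0-fold for fat-4 and 5.23-fold for fat-1, against 136-fold for fat-6 and 1633-fold for elo-5.

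In SP117, the strain sampled at every stage, 7 of the 10 genes averaged at least 1 FPKM in both L2-L3 larvae and embryos, and all 7 were higher in larvae (limma with Benjamini-Hochberg adjustment over all genes tested, threshold 0.05). Over all 13532 genes tested, 28.8% were called higher and 69% were called in either direction. The median log2 ratio was 2.36 over these 7 genes and −0.32 over all genes. fat-5, fat-7 and elo-5 averaged under 1 FPKM in SP117 embryos and entered the test only through their larval level, so that their calls add nothing to the count. Ratios are on the scale of log2(FPKM + 0.1), which understates the change of low genes. These are whole animals, so fewer cells of a type and less RNA per cell cannot be told apart.

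fat-6 held most of the summed FPKM of the Δ9 desaturase genes in every library. In SP117 it had 8.88 and 5.46 FPKM in embryos, 248, 203, 390 and 382 FPKM in L2-L3 larvae, and 329, 258 and 329 FPKM in young adults. No larval or adult library came near the embryo values, while larvae and adults overlapped. The larval level was 41.7-fold that of embryos (log2 ratio 5.38 ± 0.33 SE, adjusted p = 1.91e-05), and the adult level 43.0-fold (5.43 ± 0.23, adjusted p = 1.34e-05).

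fat-7, which encodes a protein similar to FAT-6, was low or listed near 0. It was under 1e-06 FPKM in both SP117 embryo libraries, at 5.95, 0.000491, 3.68 and 2.87 FPKM in L2-L3 larvae, and at 3.08, 3.35 and 2.96 FPKM in young adults. The larval library near 0 was the shallowest one. BC4289 young adult replicate 2 was also near 0 (4.64e-06 FPKM), at a relative depth of 76.0%, and the part of depth was not tested. No fold is given against the embryo values (adjusted p = 0.0499 for larvae and 5.81e-05 for adults). Reads shared by these similar genes could make the split between fat-6 and fat-7 uncertain, which was not tested. The larval call of fat-7 was lost in 5 of 6 fits that left out a library (adjusted p up to 0.223). Both fat-7 and fat-5 entered these tests only through their larval or adult level, so their p-values are description only. fat-5 had 0.268 and 0.591 FPKM in embryos, 3.16, 3.42, 2.18 and 1.16 in L2-L3 larvae and 3.50, 26.96 and 4.03 in young adults. All larval values lay above both embryo values (log2 ratio 2.25 ± 0.56, adjusted p = 0.00817, or 0.0695 without SP117 embryo replicate 1), and 1 young adult library stood far above the other two. Over all 23 libraries fat-6 held between 75.6% and 99.7% of the summed FPKM of the 3 Δ9 genes, with the lowest shares in TY1916 embryos.

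The pair fat-2 and fat-1 separated by stage. fat-2 had 17.5 and 11.1 FPKM in SP117 embryos, 583, 546, 455 and 691 FPKM in L2-L3 larvae and 444, 418 and 444 FPKM in young adults. Larvae were 40.2-fold above embryos (log2 ratio 5.33 ± 0.25, adjusted p = 7.84e-06). fat-1 had 74.9 and 104 FPKM in embryos, 259, 233, 232 and 219 FPKM in larvae and 205, 193 and 220 FPKM in adults. Its larval level was higher by 2.66-fold only (1.41 ± 0.19, adjusted p = 0.000382). In embryos the omega-3 desaturase gene was thus the more abundant of the pair, and in larvae and adults the Δ12 desaturase gene was.

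Within each library the ratio of fat-2 to fat-1 FPKM was 0.106 to 0.233 in SP117 embryos, 1.96 to 3.15 in SP117 L2-L3 larvae and 2.01 to 2.16 in SP117 young adults. It was 0.309 to 0.427 in TY1916 embryos and 0.183 to 0.230 in VC100 embryos. BC4289 had 2.15 to 2.40 in L2-L3 larvae and 2.22 to 2.37 in young adults. No embryo library of these strains reached 1 and every larval and adult library exceeded it. The log2 ratio was 3.92 higher in SP117 larvae than in embryos, a 15.1-fold difference (exact permutation test, two-sided, p = 0.0667, the smallest that its 15 splits allow). Over the 3 ratios and 4 stage differences examined, 12 such tests were run.

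**Figure D2:**
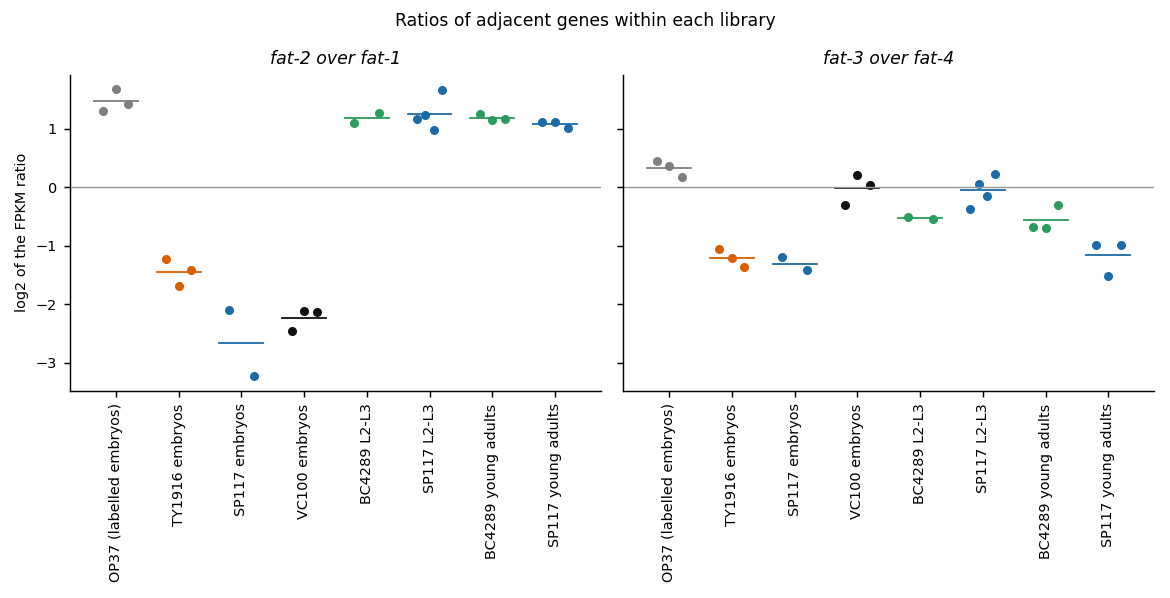
Log2 of the FPKM ratio of fat-2 to fat-1 and of fat-3 to fat-4, 1 point per library and a line at the group mean. The fat-2 to fat-1 ratio is below 0 in all embryo libraries of TY1916, SP117 and VC100 and above 0 elsewhere, and the fat-3 to fat-4 ratio is lowest in TY1916 embryos, SP117 embryos and SP117 young adults.

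fat-3 and fat-4, the Δ6 and Δ5 genes, rose as well. fat-3 had 121, 130, 105 and 130 FPKM in SP117 L2-L3 larvae, against 24.0 and 22.9 FPKM in SP117 embryos, a 5.13-fold difference (log2 ratio 2.36 ± 0.17, adjusted p = 3.24e-05). fat-4 had 156, 124, 117 and 111 FPKM in larvae, against 55.2 and 61.4 FPKM in embryos, which is 2.16-fold (1.11 ± 0.19, adjusted p = 0.00145), the smallest difference of the 10.

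Of the elongases, elo-5 had the largest ratio. It averaged under 1 FPKM in embryos and entered these tests only through its larval or adult level, so its p-values are description only. It had 0.711 and 1.22 FPKM in SP117 embryos, 89.7, 67.8, 160 and 163 FPKM in L2-L3 larvae and 166, 211 and 158 FPKM in young adults. The larval level was 109-fold that of embryos (log2 ratio 6.76 ± 0.42, adjusted p = 1.82e-05), and the adult level 171-fold (7.42 ± 0.25, adjusted p = 8.01e-06). elo-2 had 159, 116, 255 and 426 FPKM in larvae, against 38.1 and 25.8 FPKM in embryos, or 6.74-fold (2.75 ± 0.49, adjusted p = 0.00156). elo-1 had 438, 388, 481 and 698 FPKM in larvae, against 93.9 and 118 FPKM in embryos, or 4.64-fold (2.22 ± 0.26, adjusted p = 0.000193).

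The comparison of SP117 young adults with embryos called the same 7 genes higher, between log2 0.87 for fat-4 and 5.43 for fat-6, where 30.7% of all genes were called higher and 71.2% in either direction. fat-5, fat-7 and elo-5 entered only through their adult level here, and were also past the threshold. Both comparisons share the 2 embryo libraries. In young adults fat-5 was not called without SP117 embryo replicate 1 (adjusted p = 0.0826), nor fat-3 without SP117 embryo replicate 2 (0.0578). The size of these ratios depends on the scale: in TPM (transcript abundance scaled to a fixed total per library) the median of all genes lay at −0.90 in place of −0.32 for larvae over embryos, and fat-4 at 0.57 in place of 1.11, but all 7 genes, and the 3 others, were still called higher.

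Other genes of the route did not share one direction in SP117 larvae against embryos. Of the 6 other elongase genes, 4 were tested and 1 was higher, elo-6, which acts beside elo-5 on branched-chain fatty acids (153 ± 58.6 FPKM in larvae and 17.0 FPKM on average in embryos, log2 ratio 3.06). Of 6 genes of the elongation cycle and its electron supply, 3 were higher, namely let-767 (2.63), hpo-8 (0.85) and hpo-19 (0.81). Among 5 fatty acid synthesis genes, 3 were higher and fasn-1, the fatty acid synthase, was lower (−0.67). Of 9 regulators of desaturase genes, only the nuclear receptor gene nhr-80 was higher (2.36), and 6 were lower, among them nhr-13 (−1.44), iglr-2 (−1.44) and paqr-2 (−0.90). Over all 13532 genes tested, 3899 were called higher and 5440 lower. Of 10 fatty acid breakdown genes, 6 were higher, the largest ratios being those of the acyl-CoA dehydrogenase gene acdh-1 (4.28) and the acyl-CoA synthetase gene acs-2 (4.12), and 1 was lower. Of 7 intestine markers tested, 5 were higher and 1 was lower, and the summed FPKM of the list was 7533 to 9287 in SP117 larvae and 557 to 938 in SP117 embryos. Most of the larval sum was asp-1, at 6240 FPKM on average. Body wall muscle markers were higher too (6 of 6), as were pharynx markers (5 of 6, with 1 lower) and 2 of 6 hypodermis markers. Lower were 7 of 7 early embryo markers and 6 of 8 germline markers, with 1 germline marker higher. The part of these tissue differences in the 10 genes was not tested.

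**Figure D3:**
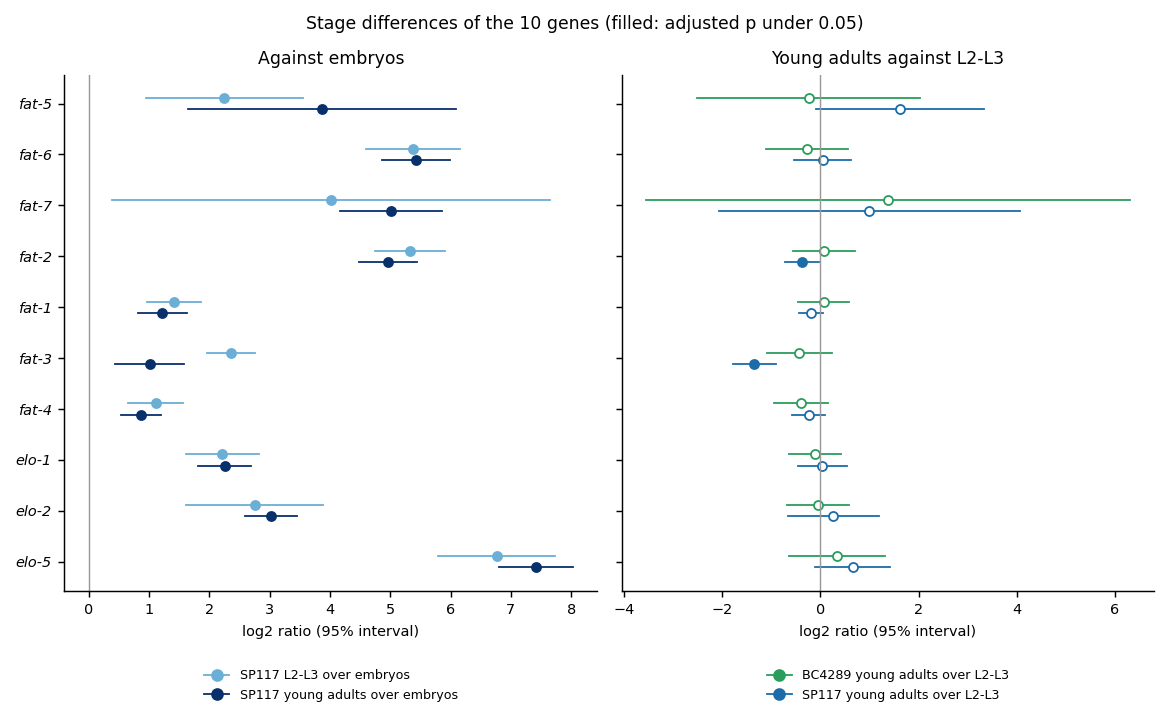
Log2 ratios of the 10 genes with 95% intervals, filled where the adjusted p was under 0.05. Left, SP117 L2-L3 larvae and young adults over embryos, where all 10 genes are filled and right of 0. Right, young adults over L2-L3 larvae in BC4289 and SP117, where only fat-3 and fat-2 of SP117 are filled.

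Between larvae and young adults the picture was different. In SP117, 76.8% of all 13593 genes tested were called in either direction, but only 2 of the 10 genes were, both lower in young adults, where 40.1% of all genes were lower. In BC4289, 0 of the 10 genes were called by limma (0 at an unadjusted p under 0.05), where 74% of all 13722 genes were. The intervals for single genes in BC4289 ran from −0.46 to 0.58 for fat-1 and from −1.1 to 0.55 for fat-6, and were wider still for fat-5, fat-7 and elo-5, so differences of up to about that size cannot be told from none.

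fat-3 fell in SP117 adults. It had 49.5, 35.4 and 60.8 FPKM in young adults, against 121, 130, 105 and 130 FPKM in L2-L3 larvae. The highest adult library lay well under the lowest larval one (log2 ratio −1.35 ± 0.19, adjusted p = 0.000338). In BC4289, fat-3 had 73.99, 52.7 and 85.9 FPKM in young adults, against 78.5 and 112 FPKM in larvae, so the stages overlapped (−0.43, 95% interval −1.098 to 0.23, adjusted p = 0.186). The difference between the strains in this stage effect was 0.92 (95% interval 0.18 to 1.66) with an unadjusted p of 0.0198 and an adjusted p of 0.647 by limma. It did not pass the threshold, nor did that of any of the other 9 genes (0.0291% of all genes were called).

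The adjacent Δ5 gene fat-4 was not called. It had 98.6, 102 and 121 FPKM in SP117 young adults, against 156, 124, 117 and 111 FPKM in larvae (log2 ratio −0.24, adjusted p = 0.169). The ratio of fat-3 to fat-4 was 0.349 to 0.504 in SP117 young adults, against 0.776 to 1.17 in SP117 larvae, with no overlap (log2 difference −1.11, exact permutation test, two-sided, p = 0.0286 of 35 splits, the smallest they allow, and unadjusted for the 12 tests). In BC4289 the ratio was 0.615 to 0.806 in young adults, against 0.684 to 0.699 in larvae (log2 difference −0.03, exact p = 1).

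The other gene called in SP117 was fat-2, at 444, 418 and 444 FPKM in young adults, against 583, 546, 455 and 691 FPKM in larvae (log2 ratio −0.37 ± 0.15, adjusted p = 0.0486). The groups touched without overlapping, and the call was lost in TPM (−0.08, adjusted p = 0.655) and in 6 of 7 fits that left out a library, with adjusted p up to 0.127. fat-6 gave 0.05 in SP117 (95% interval −0.54 to 0.63). elo-1 was at 0.04 (−0.46 to 0.54) and elo-2 at 0.27 (−0.67 to 1.20). elo-5 had 166, 211 and 158 FPKM in young adults, against 89.7, 67.8, 160 and 163 FPKM in larvae, and did not pass (0.65, adjusted p = 0.0991). Without L2-L3 replicate 4 elo-5 passed limma as higher (0.83, adjusted p = 0.0443). fat-5 had the largest ratio of the 10 genes (1.62) but was not called. It had 3.50 to 26.96 FPKM in young adults, against 1.16 to 3.42 FPKM in larvae, with no overlap. Without young adult replicate 1 fat-5 passed limma as higher (2.14, adjusted p = 0.0474). The ratios of fat-1 (−0.19) and fat-4 turned positive in TPM (0.09 and 0.05) with no call, while in median-centred libraries both were called lower (−0.36 and −0.40).

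Several groups of genes moved around them. All 7 intestine markers tested were lower in SP117 young adults than in larvae (summed FPKM 3768 to 3853, against 7533 to 9287), as were 6 of 7 in BC4289 (4326 to 5368, against 8240 to 9588). Body wall muscle markers were lower too (6 of 6 tested in SP117 and 5 of 6 in BC4289), as were pharynx markers (6 of 6 and 5 of 6). Of 8 hypodermis markers, 6 were lower and 2 were higher in each strain. The 8 germline markers and the 6 yolk protein genes were all higher in the adults of both strains. fasn-1 fell to 46.1 ± 3.19 FPKM in SP117 young adults, against 115 ± 17.0 FPKM in larvae (log2 ratio −1.30), and in BC4289 the ratio was −1.49. The ATP citrate lyase gene acly-2 was higher (2.10 in SP117 and 2.13 in BC4289). The elongase gene elo-4 was lower (−3.05 in SP117 and −2.87 in BC4289), and so was the cytochrome b5 gene cytb-5.1 (−1.25 and −1.13). Of the 9 regulators, 4 were higher and 1 was lower in SP117, and 3 were higher and 1 was lower in BC4289. Over all genes tested, 4982 of 13593 in SP117 and 5036 of 13722 in BC4289 were called higher, so these counts do not stand apart. Higher in both strains were nhr-66 (0.81 in SP117 and 1.07 in BC4289), paqr-1 (0.83 and 1.09) and iglr-2 (0.34 and 0.41), the last of which was named after its values were seen. Of 10 breakdown genes, 2 were lower in SP117 and 5 in BC4289, where 40.1% and 37.3% of all genes were called lower, so neither count stands apart from the background. The part of any of these in the members' values was not tested.

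Among embryos, TY1916 and SP117 were both set against the same 3 VC100 libraries, so these comparisons are not independent. In TY1916, 3 of 9 genes tested were lower and none was higher, where 8.76% of all 13118 genes were called lower and 27.9% in either direction. fat-7 was too low to be tested, with 0.297, 0.224 and 0.125 FPKM in TY1916.

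fat-3 had 21.8, 22.1 and 19.2 FPKM in TY1916 embryos, against 59.6, 47.2 and 53.3 FPKM in VC100 embryos. The 2 groups were far apart (log2 ratio −1.34 ± 0.19, or 2.52-fold lower, adjusted p = 0.00714). fat-6 had 5.65, 5.41 and 10.7 FPKM in TY1916, against 29.7, 19.6 and 20.4 FPKM in VC100. It too showed no overlap (−1.71 ± 0.33, 3.28-fold lower, adjusted p = 0.0155). elo-1 had 52.8, 64.6 and 78.1 FPKM in TY1916, against 218, 125 and 129 FPKM in VC100 (−1.24 ± 0.28, 2.36-fold lower, adjusted p = 0.0226). Leaving out TY1916 replicate 1 ended the calls of fat-6 (adjusted p = 0.0797) and elo-1 (0.101), and leaving out TY1916 replicate 2 did the same (0.0577 and 0.0724). The call of fat-3 held without any single library.

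fat-4, beside fat-3, was not called. It had 45.4, 51.3 and 49.7 FPKM in TY1916, against 73.5, 40.9 and 51.8 FPKM in VC100 (log2 ratio −0.14, adjusted p = 0.6696). The ratio of fat-3 to fat-4 was 0.387 to 0.479 in TY1916 embryos and 0.373 to 0.435 in SP117 embryos, against 0.811 to 1.15 in VC100 embryos. Within 0.25 Mb of fat-3 the 68 other genes tested had a median log2 ratio of 0.07, near the 0.09 of chromosome IV. Around fat-6 the 77 neighbours had 0.04. Of the other genes of the route, 0 of 4 elongases and 0 of 9 regulators passed the limma test (2 elongases and 0 regulators at an unadjusted p under 0.05), the cycle genes art-1 (−0.84) and hpo-19 (−0.87) were lower, and acly-2 was higher (1.45). Of 10 breakdown genes, 3 were higher and none was lower, namely acs-2 (0.97), acox-1.1 (0.94) and daf-22 (0.70), where 19.1% of all genes were called higher.

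The tissue and stage markers differed between the same libraries. All 6 body wall muscle markers were higher in TY1916 than in VC100 (summed FPKM 1603 to 2254, against 572 to 609), as were 4 of 7 intestine markers, with 1 lower (999 to 1549, against 512 to 700). Lower were 3 of 8 germline markers (153 to 376, against 422 to 560) and 3 of 8 early embryo markers (184 to 206, against 313 to 326). Relative depth was 51.9% to 75.5% in TY1916 embryos and 29.8% to 48.5% in VC100 embryos. Mixed-stage embryo preparations and strain cannot be told apart here.

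SP117 embryos gave values on the same side for fat-3 and fat-6 without a call. fat-3 had 24.0 and 22.9 FPKM in SP117 (log2 ratio to VC100 −1.18, 95% interval −1.74 to −0.61, adjusted p = 0.465) and fat-6 had 8.88 and 5.46 FPKM (−1.70, −2.52 to −0.88, adjusted p = 0.465). No gene of the 9 tested passed the limma test, and 0.065% of all 12307 genes passed. An unadjusted p under 0.05 was reached by 4 of the 9 (fat-2, fat-3, fat-5 and fat-6), beside 632 of all 12307 genes. Of these 4, fat-5 averaged 0.43 FPKM in SP117 embryos and entered the test only through VC100 embryos (2.06 FPKM). With all 23 libraries in one fit, fat-6 passed. elo-1, at 93.9 and 118 FPKM in SP117 embryos, gave −0.53 (95% interval −1.29 to 0.23).

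**Figure D4:**
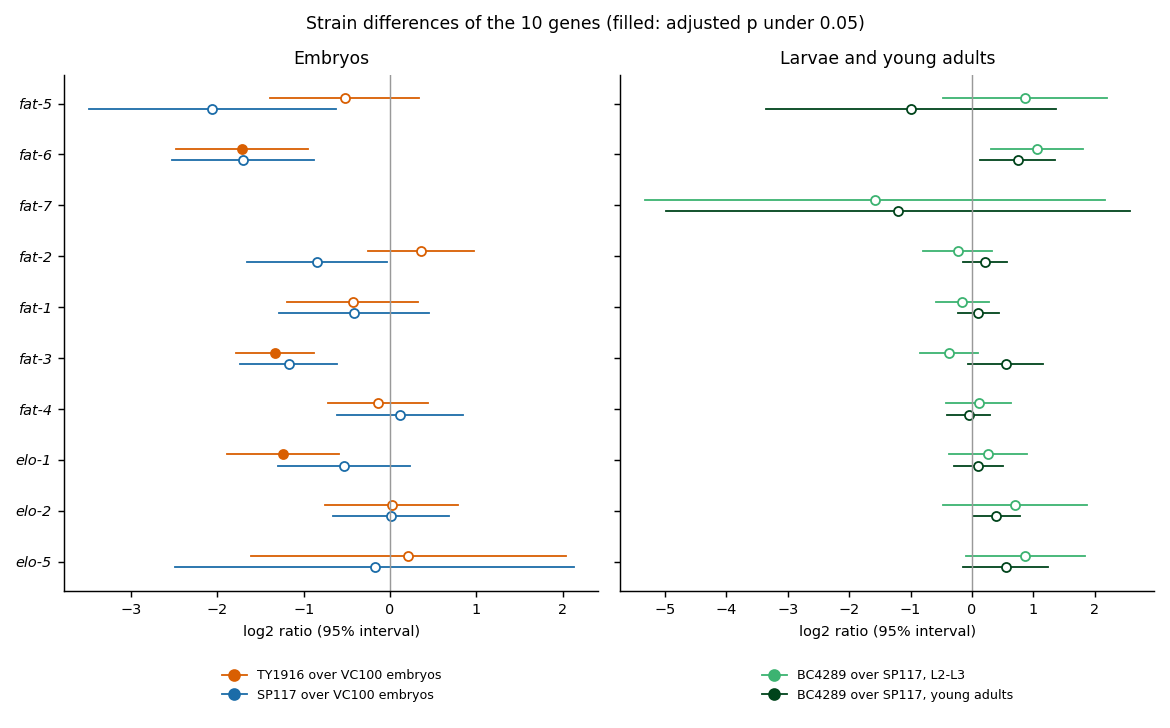
Log2 ratios between strains with 95% intervals, filled where the adjusted p was under 0.05. Left, TY1916 and SP117 embryos over the same VC100 embryos, with fat-3, fat-6 and elo-1 filled for TY1916 only. Right, BC4289 over SP117, with no gene filled. fat-7 was not tested in embryos.

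fat-1 and fat-2 lie on the right side of chromosome IV, and the genes around them had higher ratios in TY1916 than the rest of that chromosome. Within 0.25 Mb of fat-1, 86 neighbours had a median log2 ratio to VC100 that was 0.22 above that of chromosome IV, with 55 of them above the chromosome median, and against SP117 embryos it was 0.36 above, with 65 above. The value against VC100 depends on the window, at 0.08 for 0.1 Mb and 0.48 for 0.5 Mb. fat-1 itself had 64.9, 95.5 and 109 FPKM in TY1916, against 74.9 and 104 FPKM in SP117 and 181, 89.9 and 101 FPKM in VC100. Its log2 ratio was −0.01 to SP117 (95% interval −0.65 to 0.62) and −0.43 to VC100 (−1.19 to 0.33). elo-2, which lies further right on chromosome IV, was called in neither comparison. It had 18.9 to 42.5 FPKM in TY1916, overlapping the 25.8 to 38.1 FPKM of SP117 and the 26.9 to 35.3 FPKM of VC100.

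fat-2 had 27.7, 29.5 and 40.8 FPKM in TY1916, against 17.5 and 11.1 FPKM in SP117 and 33.1, 20.6 and 22.96 FPKM in VC100. All TY1916 libraries lay above both SP117 libraries but overlapped those of VC100. Its log2 ratio to SP117 was 1.21 (95% interval 0.53 to 1.88), which narrowly missed the threshold with an adjusted p of 0.0522 (limma, 6.75% of all genes called). With single libraries left out this ratio ran from 0.88 to 1.53. The highest was without SP117 replicate 1, a fit that leaves 1 SP117 library. To VC100 the log2 ratio was 0.36 (−0.25 to 0.98, adjusted p = 0.302). No other gene of the 8 tested was called between TY1916 and SP117 embryos.

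BC4289 and SP117 were compared in larvae and in young adults. By limma 0 of the 10 genes were called in either stage, where 0.0389% and 0.109% of all genes were called. An unadjusted p under 0.05 was reached by 1 of them in larvae, beside 964 of all 12870 genes tested. In young adults 2 of them reached it, beside 1012 of 12827. fat-6 had the lowest p in both. It had 511 and 737 FPKM in BC4289 larvae, against 248, 203, 390 and 382 FPKM in SP117 larvae. In young adults it had 658, 345 and 578 FPKM in BC4289, against 329, 258 and 329 FPKM in SP117. The groups did not overlap at either stage. The log2 ratio was 1.06 in larvae (95% interval 0.31 to 1.81, adjusted p = 0.531) and 0.74 in young adults (0.13 to 1.35, adjusted p = 0.5804). Averaged over both stages, a contrast chosen after seeing the data, it was 0.90, or 1.87-fold (0.42 to 1.38, unadjusted p = 0.00176, adjusted p = 0.161). In that contrast 0.408% of all genes were called. Over the 6 fits that left out a young adult library, the log2 ratio of fat-6 ran from 0.56 to 1.02. It passed only without BC4289 young adult replicate 2, the lowest BC4289 value (1.02, adjusted p = 0.0385).

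Genes around fat-6 also had higher ratios in BC4289. Within 0.25 Mb the 77 neighbours tested in larvae had a median log2 ratio 0.34 above that of chromosome IV, and 60 of them were above the chromosome median. In young adults it was 0.40 for 84 neighbours, of which 71 were above. The excess was bounded. From 0.1 Mb left to 0.3 Mb right of fat-6, a stretch set after seeing the data, 56 of 63 genes in larvae and 66 of 71 genes in young adults were above the chromosome median, with medians of 1.32-fold and 1.36-fold. In the 0.4 Mb to the left of it the medians were 0.951-fold and 0.938-fold, and in the 0.4 Mb to the right 0.996-fold and 0.968-fold. Within the stretch, 2 genes in larvae and 9 in young adults exceeded fat-6. Around the other 9 genes the neighbours' excess over the chromosome, averaged over both stages, lay between −0.06 and 0.05, but in young adults alone it reached 0.16 around fat-3. Whether sDp10 or another gain of DNA covers this stretch was not tested.

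elo-5 and elo-2 also had higher means in BC4289, without such neighbours. elo-5 had 161 and 262 FPKM in BC4289 larvae, against 89.7, 67.8, 160 and 163 FPKM in SP117 larvae. In young adults it had 403, 228 and 188 FPKM in BC4289, against 166, 211 and 158 FPKM in SP117. The strains overlapped at both stages (averaged log2 ratio 0.71, 95% interval 0.11 to 1.31, adjusted p = 0.446). elo-2 was at 0.55 (−0.08 to 1.17), and its BC4289 values of 430, 302 and 288 FPKM in young adults lay above the SP117 values of 264, 255 and 245 FPKM. The remaining genes except the variable fat-5 and fat-7 lay between −0.03 and 0.18.

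The OP37 libraries are labelled embryos, while the names given to their deposited files carry the larval stage L3. Most of the 10 genes had values nearer those of larvae. fat-2 had 476.3, 465 and 911 FPKM, fat-6 had 308, 366 and 339 FPKM, and elo-5 had 121, 118 and 28.6 FPKM. The ratio of fat-2 to fat-1 was 2.46 to 3.20, above 1 as in larvae and adults. Of the 9 genes at or above 1 FPKM on average in both OP37 and VC100 embryos, limma called 7 higher in OP37, where 28% of all genes were higher and 66.2% passed in either direction, while fat-1 (log2 ratio 0.84, adjusted p = 0.106) and fat-4 (0.69, adjusted p = 0.182) were not called. fat-7 was under 1 FPKM in VC100 embryos and entered only through OP37. The call of fat-3 (1.03, adjusted p = 0.0349) was lost in 5 of 6 fits that left out a library, with a highest adjusted p of 0.111. Against the L2-L3 larvae of SP117 and BC4289, 0 of 10 were called (0 at an unadjusted p under 0.05), where 10.7% of all genes were. In TPM, where the median of all genes moved to 0.63, fat-2 and fat-5 were called higher. Against embryos, the stage of OP37 and its fosmid cannot be told apart.

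The libraries themselves show which genes ran most alike. Over the 23 libraries, which share stage and strain, the Pearson correlation of log2(FPKM + 0.1) was highest between fat-6 and elo-1 (0.97), fat-2 and fat-6 (0.96), fat-6 and elo-5 (0.96) and elo-2 and elo-5 (0.95). Outside the 10 genes, the most like were aagr-1 for fat-2 (0.99), abhd-3.2 for elo-5 (0.98), ilys-5 for fat-6 (0.97), nlp-26 for elo-1 (0.97) and for fat-1 (0.94), and elo-6 for elo-2 (0.97). For fat-4 they were the ribosomal protein genes rps-25 (0.93) and rps-23 (0.92). fat-3 was nearest to ugt-58 (0.90), fat-7 to pqn-57 (0.84) and fat-5 to ztf-26 (0.75). At a correlation above 0.9, fat-2 had 589 of 14243 genes, elo-5 379 and fat-6 267, but fat-3 had 1. These are descriptions of the libraries with no test.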

How the data were processed

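Of the 41 samples of the study, 23 mRNA-seq libraries in 8 groups were used, and no other column of per-sample values was left aside. The authors aligned reads with HISAT2 2.2.1 to WS220 and deposited FPKM values computed with Cufflinks 2.2.1. TPM values deposited by the authors stand beside them. HTSeq 0.13.5 counts, which the authors used for fold changes, were not used here. Groups and replicate numbers came from the labels. The study speaks of replicates as collections of worms, but the labels do not tie them to separate cultures, so p-values measure the spread between these libraries. Gene names came from a RefSeq table (assembly WBcel235, names only), which matched 19880 identifiers (97.5%). Before any fit, 51 genes whose estimate had failed somewhere and 12 genes of the mitochondrial genome were removed.

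FPKM entered as log2 after adding 0.1, and a gene was tested where its average FPKM across the compared libraries reached 1. limma 3.58.1 (lmFit, eBayes with trend, R 4.3.3) was two-sided with Benjamini-Hochberg adjustment over all genes at 0.05, with no block, and was tested on simulated data (seed 20260). Replicate numbers were not taken to pair the libraries, though same-numbered TY1916 and SP117 embryo libraries correlated at 0.512 and 0.243. All 10 genes are named. Of each other gene list at most 4 genes per comparison are named, those with the largest change among genes past the threshold, and lists of 6 or fewer may be given whole. The most like genes are the 2 with the highest correlation. The genes and lists were chosen with earlier results of these data known. Alternatives were pseudocounts of 1 and 0.01, the low-value filter dropped or raised to 5 FPKM, TPM, quantile normalization, median-centred libraries, a joint fit of all 23 libraries, a block on replicate number, each library left out, and windows of 0.1 and 0.5 Mb. Intervals are 95%. Relative depth came from steps between FPKM values under 0.6. Exact tests used scipy 1.17.1 and figures matplotlib 3.10.9 under Python 3.11.15, with tables read by pandas 2.3.3 and numpy 2.4.6.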

Additional observations from a re-analysis of the deposited data

How the results depend on the processing

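Counts of the 10 genes called kept within 1.5 times under every alternative for SP117 larvae against embryos (8 to 10 with each library left out), young adults against embryos (9 to 10) and OP37 against VC100 embryos (7 to 8), and stayed at 0 for BC4289 against SP117 larvae, for the strain difference in stage effect and for the averaged strain contrast, which was chosen after seeing the data. The counts against embryos include genes that entered only through their higher group, namely fat-5, fat-7 and elo-5 for SP117 and fat-7 for OP37. Their calls add nothing, which leaves 7 genes to judge for SP117 and 9 for OP37. For SP117 young adults against larvae the count was 2, with 1 without the filter, 4 in median-centred libraries, and 1 to 2 with each library left out. TPM gave 3, with fat-5 and elo-5 higher beside fat-3. For TY1916 against VC100 embryos the count was 3, and 1 to 3 with each library left out. SP117 against VC100 embryos gave 0, and 1 with all 23 libraries in one fit. TY1916 against SP117 embryos gave 0. It gave 1, each time fat-2, with a pseudocount of 1, in median-centred libraries and in one fit of all 23 libraries. OP37 against larvae gave 0, with 2 in TPM, 1 after quantile normalization and 0 to 1 with a library left out. BC4289 young adults against larvae gave 0 to 1 (fat-7 without replicate 2 of the young adults), and BC4289 against SP117 young adults 0 to 1.

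With the replicate number as a block, fitted on libraries with a number present in all groups compared, the count was 1 for SP117 young adults against larvae, 1 for TY1916 against VC100 embryos (fat-3) and 2 for TY1916 against SP117 embryos (fat-2 and elo-1). It changed no other count by over 1.5 times. In no comparison with 3 pairs did every same-numbered pair correlate above 0.1, the level set for pairing. In TY1916 and SP117 embryos the 2 correlations were 0.512 and 0.243, a hint from the data only.

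No value of the 10 genes reversed where it was called. Scaling moved the split of all genes called: larvae over embryos in SP117 had 3899 higher and 5440 lower in FPKM, 2811 and 6741 in TPM, and 4998 and 4191 in median-centred libraries. TY1916 over VC100 had 2511 higher and 1149 lower, and 2253 and 2026 in median-centred libraries. OP37 over larvae had 477 and 906, and 4034 and 373 in TPM. The causes were not tested. Groups of 2 to 4 libraries limit the precision, most of all for fat-5 and fat-7.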
